A study of Mus musculus with 6 samples.

Results

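The response of inflammatory chemokine genes to Eda was followed in embryonic mammary buds. The genes were a fixed list of 10, namely the CXC ligands Cxcl1, Cxcl2, Cxcl5 and Cxcl12, the receptor Cxcr4, the CC ligands Ccl2, Ccl5, Ccl7 and Ccl20, and the CX3C ligand Cx3cl1. Each was looked up by its Ensembl identifier among the 25949 probe sets of the study, and all 10 were measured. The buds were dissected at E13.5 from Eda-/- embryos of B6CBA background, so that both groups lack the endogenous Eda ligand. One group was kept for 4 h without added protein (control, 3 arrays) and the other with recombinant Fc-Eda-A1 (Fc-Eda, 3 arrays). Littermates of 3 litters were used, and the buds of an embryo were divided between control and treatment, so that arrays of the same replicate number form 3 pairs. Every array was hybridized with RNA from a pool of buds of several embryos, from which most, but not all, of the surrounding mesenchyme had been removed by hand.

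Chemokines are small secreted proteins that attract cells along a gradient by binding G protein-coupled receptors, and the position of the first cysteines divides them into CXC, CC and CX3C classes. Many of the inflammatory ones are transcribed through NF-κB, the transcription factor that Eda activates through its receptor Edar. Cxcl1, Cxcl2 and Cxcl5 bind Cxcr2 and are best known for recruiting neutrophils, whereas Cxcl12 is the ligand of Cxcr4 and guides migrating cells in the embryo. Ccl2 and Ccl7 bind Ccr2, and Ccl20 binds Ccr6. Cx3cl1 is anchored in the membrane, from which it can be shed, and its receptor is Cx3cr1.

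Promoters of 6 of the 10 genes were found by symbol in the RefSeq table used here (build GRCm38.p6), those of Cxcl1, Cxcl2, Cxcl12, Cxcr4, Ccl20 and Cx3cl1. Each was searched on both strands, from 250 bases before to 50 bases after the annotated start, for the NF-κB binding motif written GGGAANTTCC and for the wider kappaB consensus, which contains it. The narrow motif lay in the promoters of Cxcl1 and Cxcl2 and in 0.341% of the 32851 promoters in the table. The wider consensus was found in Cxcl1, Cxcl2 and Ccl20 and in 8.46% of all promoters. In Cxcl1 the match on the plus strand spanned bases 71 to 62 before the start, and in Cxcl2 bases 97 to 88. In both, a second match on the other strand overlapped it, shifted by 1 base. The match in Ccl20 lay on the minus strand, 80 to 71 bases before the start. No match to either was found in this window of Cxcl12, Cxcr4 or Cx3cl1. The 150 bases before the start are shown for the genes with a match and for Cxcr4 and Cx3cl1, which with Cxcl2 had the 3 largest mean differences of the 10 genes. They lie on the plus strand at chr5:90891095-90891244 (Cxcl1), chr5:90903749-90903898 (Cxcl2), chr1:83116616-83116765 (Ccl20) and chr8:94772030-94772179 (Cx3cl1), and on the minus strand at chr1:128592300-128592449 (Cxcr4). Each is written 5′ to 3′ along its gene, and capitals mark the bases covered by a match.
Cxcl1: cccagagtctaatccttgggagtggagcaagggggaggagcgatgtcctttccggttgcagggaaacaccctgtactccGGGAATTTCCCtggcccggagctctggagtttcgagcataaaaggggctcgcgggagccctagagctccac
Cxcl2: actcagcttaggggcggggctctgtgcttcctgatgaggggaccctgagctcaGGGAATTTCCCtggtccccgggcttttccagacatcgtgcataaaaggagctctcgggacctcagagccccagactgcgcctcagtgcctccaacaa
Ccl20: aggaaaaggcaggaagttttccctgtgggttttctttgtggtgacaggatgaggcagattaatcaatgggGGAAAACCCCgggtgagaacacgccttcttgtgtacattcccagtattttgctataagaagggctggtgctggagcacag
Cxcr4: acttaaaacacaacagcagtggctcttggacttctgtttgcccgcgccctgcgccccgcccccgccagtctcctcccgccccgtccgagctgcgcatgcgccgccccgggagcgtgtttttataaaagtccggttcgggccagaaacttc
Cx3cl1: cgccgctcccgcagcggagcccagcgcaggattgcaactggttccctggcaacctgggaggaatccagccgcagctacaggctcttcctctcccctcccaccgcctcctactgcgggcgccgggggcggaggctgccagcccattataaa

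The values are log2 expression levels, 1 per array and probe set, and 6 arrays limit the precision of every difference. The array of control replicate 1 stood apart, with a median over all probe sets of 4.99 where the other 5 arrays had 4.80 to 4.83, and with a narrower interquartile range of 2.59 against 2.81 to 2.96. Its lower quartile was 3.74, against 3.45 to 3.56 on the others, and the values of each pair are therefore given separately. The level of a probe set depends on its probes as well as on the RNA, so that levels are compared between arrays and not between genes. The samples are tissue pools, in which a change in the number of expressing cells and a change in RNA per cell cannot be told apart.

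Of the 10 genes, Cxcl2, Cxcr4 and Cx3cl1 were higher in every Fc-Eda array than in any control array, and the groups of the other 7 overlapped. Over all probe sets, every Fc-Eda array lay above every control array in 3.98%. In limma with the pairs as a block, 0 of the 10 genes and 0% of all probe sets passed a q-value of 0.05. The smallest q of the whole table was 0.100, shared by 8 probe sets, and Cxcl2 was one of them. With p unadjusted and under 0.05, the same 3 genes were higher and 0 were lower, while 2.73% of all probe sets were higher and 3.33% lower. The difference was positive in all 3 pairs in 4 of the 10 genes, the same 3 and Cxcl12, against 13.2% of all probe sets. The median of the 10 mean differences was 0.15 on the log2 scale, and the median over all probe sets was -0.02. By pair, the median of the 10 genes was 0.07 in pair 1, 0.37 in pair 2 and 0.21 in pair 3, where the median of all probe sets was -0.07, 0.00048 and 0.0085.

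**Figure D1:**
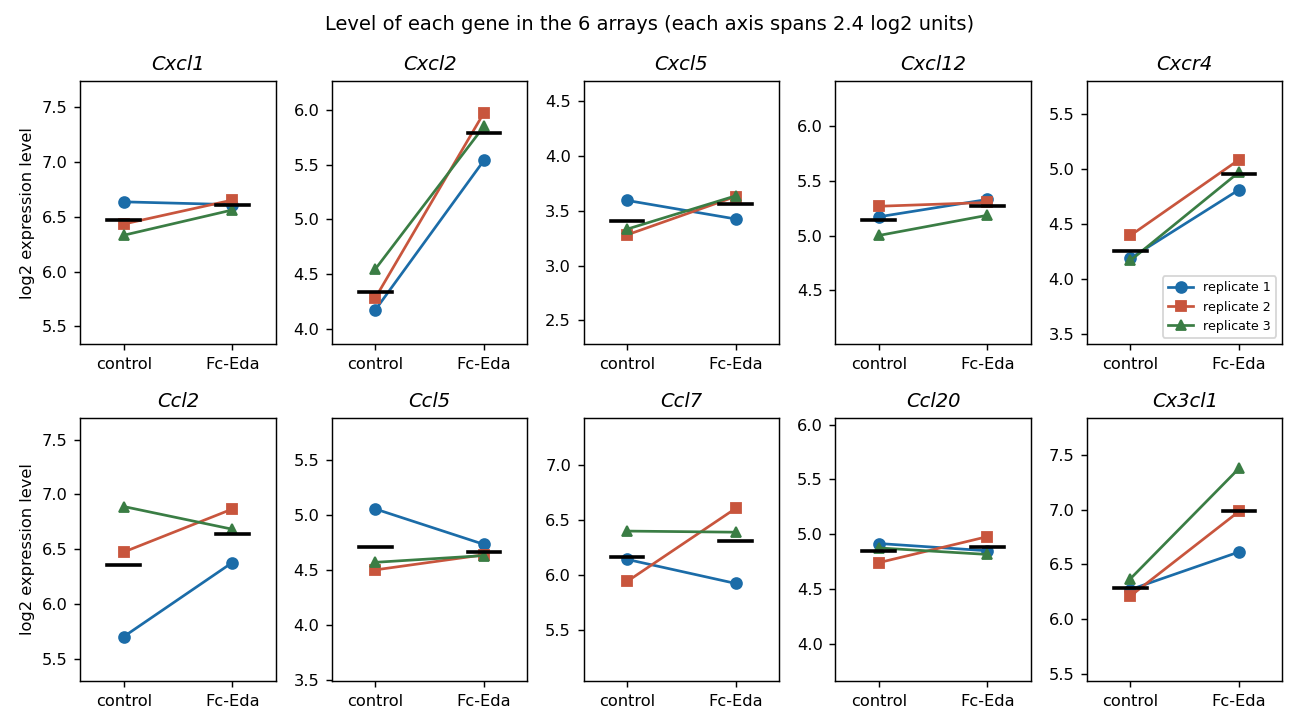
Log2 expression level of the 10 genes in control medium and after Fc-Eda, with 1 coloured line per replicate number and a black bar at each group mean (n = 3). All axes have the same length in log2 units, but each is centred on the mean level of its own gene. The lines of Cxcl2, Cxcr4 and Cx3cl1 all run upward and their groups do not overlap. Those of Cxcl12 also run upward, but its groups overlap. The remaining 6 genes have lines running in both directions.

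Among the ligands of Cxcr2, Cxcl2 (ENSMUSG00000058427_at) showed the largest difference of the 10 genes. Its level was 4.18, 4.29 and 4.55 in control replicates 1, 2 and 3, and 5.54, 5.97 and 5.85 in the matching Fc-Eda replicates. The lowest treated array was thus about 1 log2 unit above the highest control array. The differences within pairs were 1.36, 1.69 and 1.30, with a mean of 1.45 (SE 0.11, q = 0.100 in limma). This corresponds to a 2.73-fold level after Fc-Eda, with a 95% interval of 2.26 to 3.31. Ranked by mean difference, Cxcl2 was number 9 of the 25949 probe sets. The study's methods also used IBMT and Cyber-T, which let the expected variance follow the level. In versions written out here, Cxcl2 passed the threshold in both, with q = 0.0077 in IBMT and q = 0.00031 in the Cyber-T type test. It was the only one of the 10 genes called higher by IBMT, which called 0.339% of all probe sets higher.

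Cxcl1 (ENSMUSG00000029380_at), the neighbouring ligand on chromosome 5 with the same motif in its promoter, was at 6.64, 6.43 and 6.33 in control medium and at 6.61, 6.65 and 6.56 after Fc-Eda. The groups overlapped, and control 1 was nearly as high as the highest treated array. The pair differences were -0.03, 0.22 and 0.23, and the mean of 0.14 had a 95% interval of -0.10 to 0.38 (q = 0.751 in limma). Without pair 1 the mean was 0.22 (unadjusted p = 0.039, q = 0.565 in limma). It was 0.10 without pair 2 and 0.097 without pair 3. Within each pair, the difference of Cxcl2 exceeded that of Cxcl1 by 1.07 to 1.47 log2 units. With 3 pairs, an exact sign-flip test cannot give a p below 0.25, and this contrast was chosen after its values were seen, so that it was not tested. Cxcl1 and Cxcl2 are related in sequence, and whether their probes cross-hybridize was not assessed here.

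Cxcl5 (ENSMUSG00000029371_at), the third Cxcr2 ligand of the list, was at 3.59, 3.28 and 3.33 in control medium and at 3.42, 3.63 and 3.64 after Fc-Eda. Pairs 2 and 3 differed by 0.35 and 0.30, and pair 1 by -0.17. The mean of 0.16 had a 95% interval of -0.17 to 0.49 (q = 0.756 in limma), and it was 0.33 without pair 1 (unadjusted p = 0.013, q = 0.505 in limma), 0.07 without pair 2 and 0.09 without pair 3. Control 1 was the highest of its group for both Cxcl1 and Cxcl5. After cyclic loess, which removes level-dependent shifts between arrays, the differences of Cxcl5 were positive in all pairs, at 0.10, 0.34 and 0.28, and its mean was 0.24 (unadjusted p = 0.031, q = 0.507 in limma). Quantile normalization also gave 0.24 (unadjusted p = 0.030, q = 0.515 in limma). Under these scalings Cxcl5 therefore joined the genes with an unadjusted p under 0.05 and, after loess, those positive in all 3 pairs. The shares of all probe sets that meet these marks were computed on the deposited values only. Whether Cxcl5 stands out from them after rescaling was not tested. The difference of Cxcl1 in pair 1 was -0.11 after loess.

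**Figure D2:**
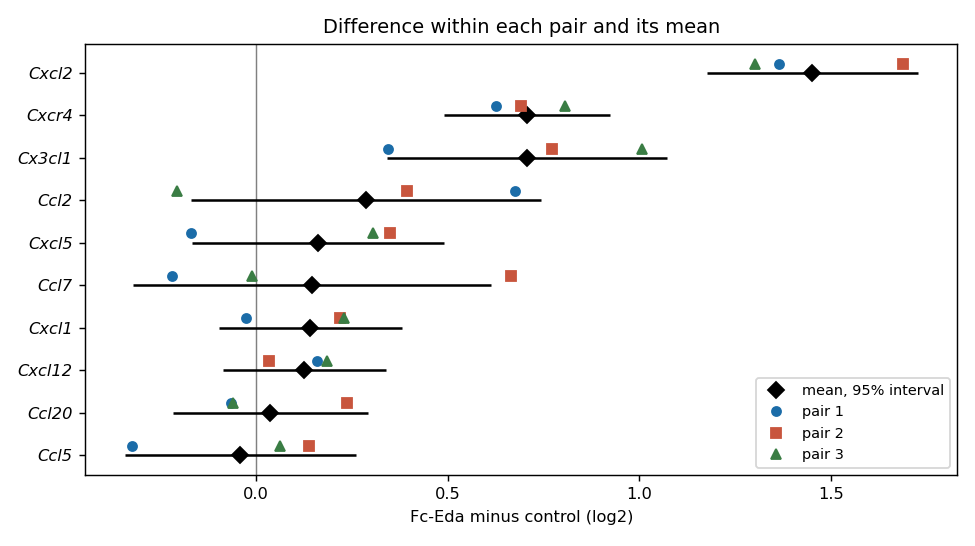
Fc-Eda minus control on the log2 scale for each gene, with coloured symbols for the 3 pairs and a black diamond with a line for the mean and its 95% interval in limma. The intervals of Cxcl2, Cxcr4 and Cx3cl1 lie above 0 before any adjustment for the number of probe sets, and those of the other 7 genes span 0.

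The receptor Cxcr4 (ENSMUSG00000045382_at) was at 4.19, 4.39 and 4.17 in the 3 control replicates and at 4.81, 5.09 and 4.97 after Fc-Eda. The groups were separated by more than the range within either. The pair differences of 0.62, 0.69 and 0.81 were close to each other, with an SD of 0.09 where probe sets of similar level had a median SD of 0.20. The mean difference was 0.71 (SE 0.08, q = 0.204 in limma), a 1.63-fold level with a 95% interval of 1.41 to 1.90. Cxcr4 missed the threshold in IBMT (q = 0.070) and passed it in the Cyber-T type test (q = 0.036).

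Its ligand Cxcl12 (ENSMUSG00000061353_at) was at 5.17, 5.27 and 5.00 in control medium and at 5.33, 5.30 and 5.19 after Fc-Eda. All 3 pair differences were positive, at 0.16, 0.03 and 0.18, but the groups overlapped and the mean of 0.13 had a 95% interval of -0.09 to 0.34 (q = 0.751 in limma). The interval excludes a rise as large as that measured for Cxcr4. The SD of its pair differences was 0.08, the smallest of the 10 genes. In each pair the difference of Cxcr4 exceeded that of Cxcl12, by 0.47, 0.66 and 0.62 log2 units. This contrast, too, was chosen after its values were seen and was not tested.

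**Figure D3:**
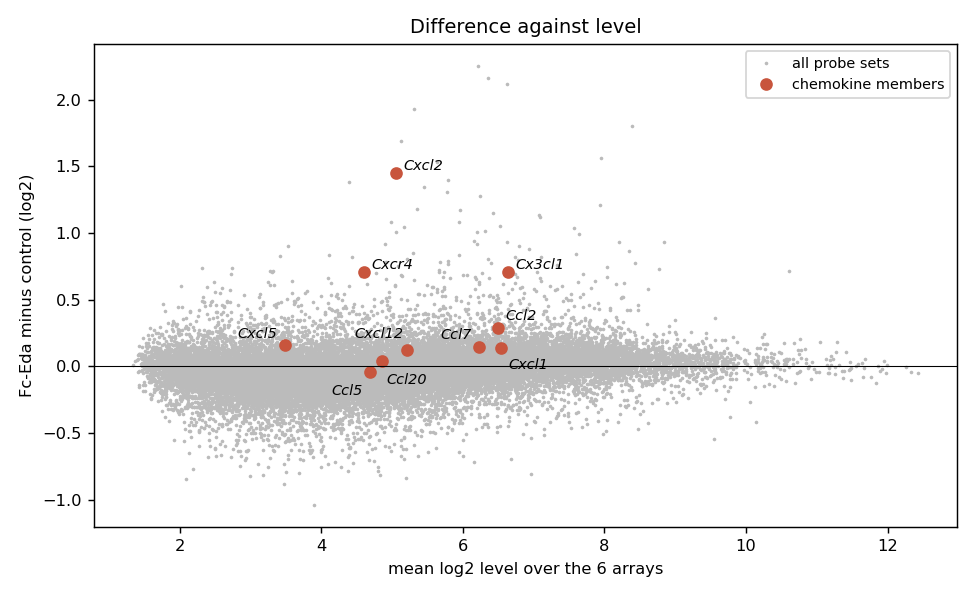
Mean difference between Fc-Eda and control (log2, 3 pairs) against the mean level over the 6 arrays, with all 25949 probe sets in grey and the 10 genes in red. Cxcl2 lies apart from the bulk of the probe sets at 1.45, Cxcr4 and Cx3cl1 lie along its upper edge at 0.71, and the other 7 lie within it.

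Cx3cl1 (ENSMUSG00000031778_at), the membrane-anchored ligand, had nearly the same control level in all replicates, at 6.27, 6.21 and 6.37. After Fc-Eda it was at 6.61, 6.98 and 7.38, so that the treated arrays were all higher but spread over a wider range. The SD was 0.08 in the control group and 0.38 in the Fc-Eda group (n = 3 each). The pair differences were 0.34, 0.77 and 1.01, with a mean of 0.71 (SE 0.14, q = 0.397 in limma), a 1.63-fold level with a 95% interval of 1.27 to 2.10. By mean difference Cxcr4 and Cx3cl1 were numbers 70 and 72 of all probe sets. The differences of both had the same mean, but the SD between pairs was 0.34 for Cx3cl1 and 0.09 for Cxcr4. Cx3cl1 had q = 0.091 in IBMT and q = 0.017 in the Cyber-T type test. Together with Cxcl2 and Cxcr4, it made up the 3 of the 10 genes that the Cyber-T type test called higher, against 0.624% of all probe sets.

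Like the other genes of the list, the 4 CC ligands did not pass the limma threshold, which 0% of all probe sets passed. The groups overlapped in each of them, and only 3.98% of all probe sets had every Fc-Eda array above every control array. Ccl2 (ENSMUSG00000035385_at), which attracts monocytes, was at 5.70, 6.47 and 6.89 in control medium and at 6.38, 6.87 and 6.68 after Fc-Eda. Its control arrays covered more than 1 log2 unit, and their SD of 0.60 was 4.85 times the median SD of control arrays among probe sets of similar level. The difference was 0.68 in pair 1, 0.39 in pair 2 and -0.21 in pair 3, with a mean of 0.29 and a 95% interval of -0.17 to 0.74 (q = 0.751 in limma). Without pair 3 the mean was 0.53 (unadjusted p = 0.0085, q = 0.451 in limma), and without pair 1 it was 0.09 (q = 0.813 in limma).

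Ccl7 (ENSMUSG00000035373_at), which lies beside Ccl2 on chromosome 11 and shares its receptor, was at 6.14, 5.94 and 6.40 in control medium and at 5.92, 6.61 and 6.39 after Fc-Eda. The pair differences were -0.22, 0.67 and -0.01, so that the mean of 0.15 came from pair 2 (95% interval -0.32 to 0.61, q = 0.771 in limma). Without this pair the mean was -0.11. The SD of the pair differences was 0.46, which is 3.80 times the median of probe sets of similar level, and the corresponding ratio was 3.88 for Ccl2 and 2.88 for Cx3cl1. The pair with the largest difference was pair 1 for Ccl2, pair 2 for Ccl7 and pair 3 for Cx3cl1.

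**Figure D4:**
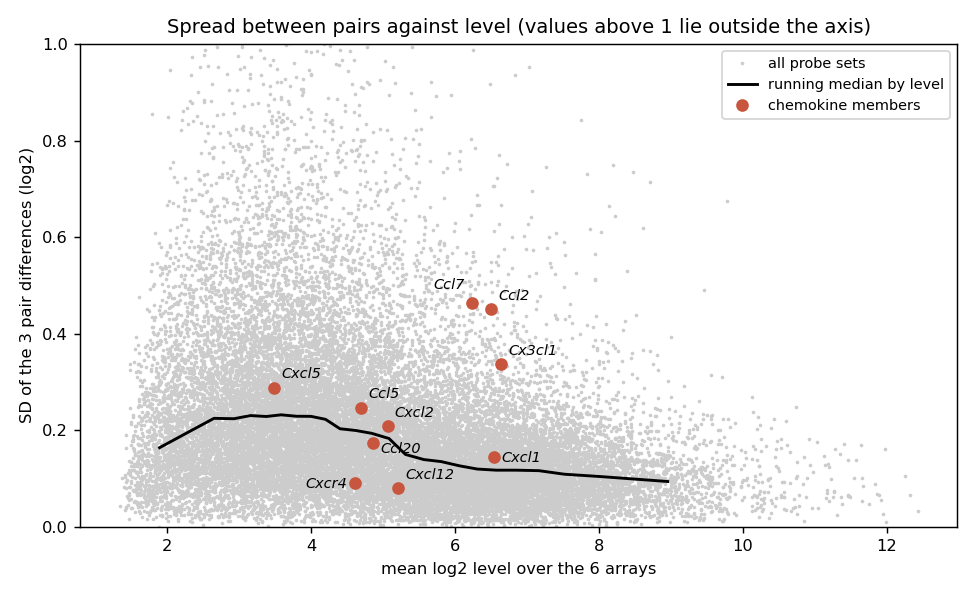
Standard deviation of the 3 pair differences (log2) against the mean level over the 6 arrays, with all probe sets in grey, their running median by level as a black line and the 10 genes in red. Ccl7, Ccl2 and Cx3cl1 lie well above the line, and Cxcr4 and Cxcl12 below it.

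Ccl5 (ENSMUSG00000035042_at), a ligand best known from activated T cells, was at 5.06, 4.50 and 4.57 in control medium and at 4.73, 4.64 and 4.63 after Fc-Eda. Control 1 was the highest of the 6 arrays, and the pair differences were -0.32, 0.14 and 0.06. Its mean of -0.04 was the only negative one of the 10 (95% interval -0.34 to 0.26, q = 0.817 in limma). After cyclic loess the mean was 0.02 and the difference in pair 1 was -0.12. Ccl20 (ENSMUSG00000026166_at), which attracts Ccr6-bearing lymphocytes and dendritic cells, was at 4.92, 4.74 and 4.87 in control medium and at 4.85, 4.98 and 4.82 after Fc-Eda. Its pair differences were -0.07, 0.24 and -0.06, with a mean of 0.04 and a 95% interval of -0.22 to 0.29 (q = 0.815 in limma). After cyclic loess the mean of Ccl20 was 0.09 and the difference in pair 1 was 0.10. Without pair 2 its mean on the deposited values was -0.06. For both genes the interval on the deposited values excludes a change of the size seen in Cxcr4 or Cx3cl1.

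With quantile normalization, centring on the median or cyclic loess, the mean difference lay between 1.45 and 1.51 for Cxcl2 on the deposited and rescaled values, between 0.71 and 0.78 for Cxcr4 and between 0.67 and 0.76 for Cx3cl1. When each pair was left out in turn, the means were 1.33 to 1.53 for Cxcl2, 0.66 to 0.75 for Cxcr4 and 0.56 to 0.89 for Cx3cl1. The highest mean of any other gene under these settings was 0.53, for Ccl2 without pair 3, where Cx3cl1 had its lowest value of 0.56, so that these genes were not apart there. The range was wider for Cx3cl1 than for Cxcr4, although both had the same mean on all 3 pairs.

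**Figure D5:**
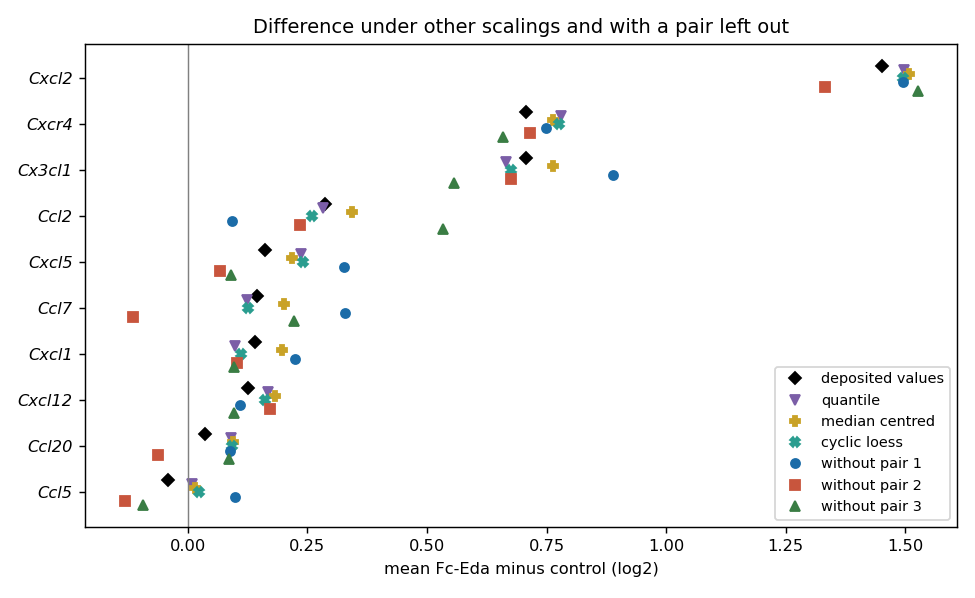
Mean difference between Fc-Eda and control (log2) for each gene on the deposited values, after 3 other scalings and with each pair left out. The symbols of Cxcl2 lie between 1.33 and 1.53 and those of Cxcr4 between 0.66 and 0.78, while those of Ccl5, Ccl7 and Ccl20 fall on both sides of 0.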

How the data were processed

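Expression was profiled on 6 Affymetrix Mouse Exon 1.0 ST arrays, 3 per condition. Groups and replicate numbers were taken from the sample titles. The authors deposited log2 values, 1 per array for each of 25949 probe sets, and the submitters' processing notes name RMA. The probe set definition and genome build are not given in the sources used here.

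The 10 genes, the tests and the promoter motif were chosen with earlier results of these data known. All 10 were named, with symbols from the list of identifiers, since the reference table paired 0 of the identifiers with a symbol. Other chemokines, receptors and cell type markers were therefore not analysed here.

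Treatment was tested across all probe sets in limma 3.58.1 (R 4.3.3) with the replicate number as a block, two-sided, without a filter on level, and Storey q-values were computed with a threshold of 0.05. Arrays of 1 number share their embryos, and the correlation of their deviations from the group means across probe sets was 0.079, 0.29 and 0.29. IBMT (loess span 0.75) and a Cyber-T type test (window 101, prior weight 10) were written out and may differ from the authors' programs. Median SDs at similar level were taken over the 1000 nearest probe sets. Alternatives were a fit without the block, limma with trend and robust moderation, both written-out tests and a plain paired t-test. Further ones were Benjamini-Hochberg adjustment, a filter at the median level, 3 other scalings and leaving out each pair. The paper describes pairing within limma, IBMT and Cyber-T, and the plain paired t-test by itself was added here. The paired t-test, limma with the block and both written-out tests were run on simulated data whose variance followed the level alone. Genes with a wider spread than others of similar level, such as Ccl2, Ccl7 and Cx3cl1, were thus not represented. The simulation does not show how these tests behave for such genes.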

Additional observations from a re-analysis of the deposited data

How the results depend on the processing

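Limma called 0 of the 10 genes and 0 probe sets in either direction, and these counts stayed at 0 with Benjamini-Hochberg adjustment, quantile normalization and cyclic loess. In limma at an unadjusted p under 0.05, 3 of the 10 genes and 708 probe sets were higher. Over all probe sets the numbers higher and lower were 3 and 0 with no replicate block, where 0 of the 10 genes were called. They were 90 and 6 with an intensity trend and robust moderation together and 88 and 6 in IBMT. The Cyber-T type test gave 162 and 31, as did at least 1 of the 3 tests. Above the median level the numbers were 85 and 6, and after centring 56 and 1. The plain paired t-test added here gave 802 and 696 at an unadjusted p under 0.05, and 0 and 1 after Benjamini-Hochberg adjustment. Of the 10 genes, 1 was called higher with trend and robust moderation, in IBMT and above the median level (where 7 of them remained). The number was 2 after centring and in the plain paired t-test without adjustment. It was 3 in the Cyber-T type test and in at least 1 of 3 tests. None was called lower in any of these. Leaving out each replicate gave 0 to 10 probe sets higher, 0 to 1 lower and 0 to 1 of the 10 genes higher, the last being Cxcl2 without replicate 3 (q = 0.031). The calls of Cxcl2 had q = 0.0077 in IBMT, 0.0082 with trend and robust moderation, 0.0067 above the median level and 0.0040 after centring, where Cxcr4 had q = 0.039. Without the block Cxcl2 had q = 0.053. The sign turned only in genes with no call. Ccl5 was at 0.0091 with quantile normalization, 0.015 after centring and 0.023 after cyclic loess. Leaving out each replicate, Ccl5 ranged from -0.13 to 0.10, Ccl20 from -0.063 to 0.089 and Ccl7 from -0.11 to 0.33, with the lowest value without replicate 2 and the highest without replicate 1 in each. The cause was not tested. The planned counts for other chemokines and receptors were not run, for want of names. The values carry no detection call, so that no dim gene was judged absent.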
